A study of Arabidopsis thaliana with 6 samples.

Results

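COR27 and GI are Arabidopsis thaliana genes tied to the circadian clock. Their transcripts were followed here across 6 Affymetrix ATH1 arrays of leaf RNA. COR27 (AT5G42900) and GI (AT1G22770) each have 1 probe set that names them alone, 249174_at and 264211_at, so no choice between probe sets by brightness was needed. They are 2 of the 13356 genes to which the platform annotation used here gives a probe set of their own. It lists no gene for 8730 probe sets. A gene said below to lack a probe set of its own may therefore still be on the array. The pair was chosen by name and selected on its signals over the arrays, by genotype and replicate number, which were already known, so the levels below are a description. The study asks which leaf transcripts differ when the est1b mutation is added to a plant that already lacks PAD4.

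The 3 pad4 est1b samples carried the pad4-1 mutation together with est1b-1, the SALK_073354 insertion, which the labels describe as knockouts in strain Col-0. The 3 pad4 samples carried pad4-1 alone (stock N3806, strain Col). Loss of PAD4, which sustains salicylic acid defence against pathogens, was thus common to both groups, and no wild type was analysed here. All seeds were kept at 4 °C for 24 h before sowing, per the labels. Growth was on soil at 22 °C, with 16 h of light and 8 h of dark for the first 2 weeks. For the later 3 weeks they write the same figures with dark before light, so the day length of that time is not settled by them. No hour of harvest is given in the labels. The labels give the stage of the 3 pad4 est1b samples and pad4 replicate 1 as 5.10 weeks. For pad4 replicates 2 and 3 they give 3.90 weeks. Whether these are plant ages or growth stages is not settled by the labels, and they are called stages 5.10 and 3.90 below. The labels give the tissue of pad4 replicates 2 and 3 as leaves and that of the others as developed rosette leaves. They do not say whether replicates came from separate plants.

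The clock of Arabidopsis is a loop of transcriptional repressors in which proteins made at dawn and proteins made at dusk hold each other's genes off. COR27 and GI are both known as evening-phased outputs of this loop, whose promoters are held down by the morning proteins CCA1 and LHY. GI is a large protein that steadies the blue-light receptors ZTL and FKF1 and through them sets the stability of clock and flowering proteins. COR27 is a small protein induced by cold, which acts in the clock, in freezing tolerance and in light signalling. Transcripts of this kind swing several-fold in the course of a day, and COR27 responds to temperature as well.

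Signals are the deposited linear values, and every array had a 2%-trimmed mean of 100.0 units. The median signal per array lay between 21.2 and 31.6 units. RCA, the rubisco activase, and LHCB4.2, a light-harvesting protein, are the only 2 of 14 leaf markers with a probe set of their own, and both were bright, at 4990 to 8105 and 6228 to 9805 units over the 6 arrays. Of the flower, root and seed markers listed, 0 have such a probe set in this annotation, so RNA of other organs was not checked. Neither mutated gene has a probe set that names it alone here, and the genotypes were taken as labelled.

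COR27 varied widely between arrays, most of all within pad4. It gave 124, 156 and 529 signal units in pad4 est1b replicates 1, 2 and 3, against 23.1, 16.7 and 547 units in the pad4 replicates of those numbers. The arrays numbered 3 were high in both genotypes and lay close together. On the others COR27 was dim in pad4 and several-fold brighter in pad4 est1b, and the groups overlapped through pad4 replicate 3.

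The mean COR27 signal was 269 ± 225 units in pad4 est1b and 196 ± 305 units in pad4 (SD, n = 3 each). The highest array was 4.26 times the lowest within pad4 est1b. Within pad4 it was at least 27.4 times the lowest, with pad4 replicate 2, too dim to be measured well, set to 20 units. On the log2(signal + 10) scale the SD of COR27 was 1.08 in pad4 est1b, larger than that of 98.6% of the other probe sets kept. In pad4 the SD was 2.45, larger than that of 99.98% of them. The usual spread was much smaller, with a median SD of 0.34 over all probe sets in pad4 est1b and 0.41 in pad4.

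GI had the opposite order by replicate number and a smaller swing. It gave 515, 350 and 207 units in pad4 est1b replicates 1, 2 and 3, against 362, 182 and 148 units in the pad4 replicates of those numbers. Replicate 1 was the brightest and replicate 3 the dimmest in both genotypes, and in each same-numbered pair the pad4 est1b array was the brighter. The groups overlapped, since pad4 replicate 1 stood above pad4 est1b replicates 2 and 3.

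The mean GI signal was 357 ± 154 units in pad4 est1b and 231 ± 115 units in pad4 (SD, n = 3 each). The highest array was 2.49 times the lowest in pad4 est1b and 2.45 times in pad4. The SD of the log2 values was 0.64 in pad4 est1b and 0.65 in pad4, larger than that of 86.7% and 76.8% of the other probe sets. GI thus varied by about the same factor within both genotypes, whereas the factor for COR27 was much larger within pad4. In bulk leaf RNA, fewer cells of a type and less RNA per cell cannot be told apart.

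**Figure D1:**
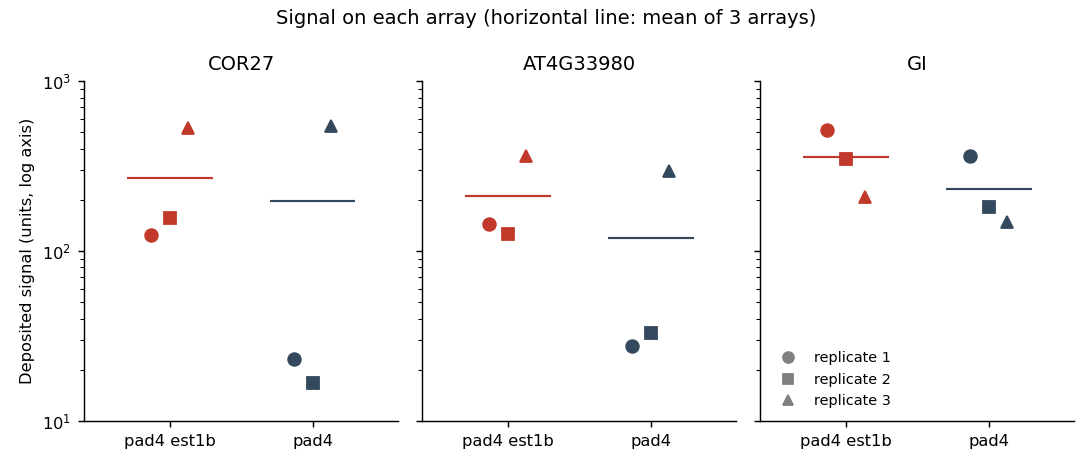
Deposited signal (units, log axis) of COR27, AT4G33980 and GI on the 3 pad4 est1b arrays (left in each panel) and the 3 pad4 arrays (right), with the replicate number as the symbol and the mean of 3 arrays as a line. COR27 and AT4G33980 are highest in replicate 3 of both genotypes and dim in pad4 replicates 1 and 2 (23.1 and 16.7 units for COR27), while GI is lowest in replicate 3 (207 units in pad4 est1b and 148 in pad4).

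Genotype differences were estimated with limma on log2(signal + 10) over the 12804 probe sets that were not controls and had a mean signal of at least 20 units. Both genes passed this filter. With a threshold of 0.05 on the Benjamini-Hochberg adjusted p, the fit called 5 probe sets, or 0.0391% of those tested, all higher in pad4 est1b. Neither COR27 nor GI was among them. The log2 fold change of COR27, pad4 est1b over pad4, was 1.53 ± 1.10 (SE), with a 95% interval from -0.99 to 4.06 and an adjusted p of 1.00 by limma. That of GI was 0.62 ± 0.43 (SE), with a 95% interval from -0.37 to 1.61 and an adjusted p of 1.00 by limma. These intervals hold no difference as well as a several-fold higher COR27 in pad4 est1b, so the arrays do not fix the size of either effect.

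The estimate for COR27 rests on which arrays are included. Taken by number, the pad4 est1b array was above the pad4 array by 2.02 on the log2 scale for the arrays numbered 1 and by 2.63 for those numbered 2, while the difference for those numbered 3 was -0.05. For 90% of probe sets the difference for number 1 lay between -0.52 and 0.66, and for number 2 between -0.83 and 0.77. Leaving out pad4 replicate 3 gave a log2 fold change of 2.94. It was 0.75 without pad4 replicate 2, 0.91 without pad4 replicate 1 and 0.92 without pad4 est1b replicate 3. Without both replicate 3 arrays the COR27 value was 2.33 ± 0.26 (SE), with an adjusted p of 0.022 by limma. In that fit of 2 arrays against 2, limma called 19 probe sets, 0.148% of those tested. The arrays to leave out were picked with their values known, so this call is no independent evidence of a difference.

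For GI the differences by number were 0.50, 0.90 and 0.46 for the arrays numbered 1, 2 and 3, all in the same direction. The labels do not say that samples of one number were grown or harvested together. The log2 fold change of GI was 0.32 without pad4 est1b replicate 1 and 0.37 without pad4 replicate 3. It was 0.95 without pad4 est1b replicate 3 and 0.99 without pad4 replicate 1. With the labelled stage as a covariate, which sets the pad4 est1b arrays against pad4 replicate 1 alone, the GI value was -0.11, since that array was the brightest of its genotype. COR27 had 2.79 in that fit.

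Stage 3.90 occurs only in pad4, so labelled stage is partly confounded with genotype, and its part in the COR27 signals was not tested. Within pad4, replicates 2 and 3 share stage 3.90 and differed by at least 27.4-fold in COR27. Replicate 1, of stage 5.10, was about as dim as replicate 2. The 2 arrays numbered 3 also had the lowest median signals, 25.1 units in pad4 est1b and 21.2 units in pad4, against 28.5 to 31.6 units on the others. For the actin and GAPDH controls, the mean log2 ratio of the 3' to the 5' probe sets was taken on each array. It was 2.69, 2.57 and 2.87 on pad4 est1b replicates 1, 2 and 3. On the pad4 replicates of those numbers it was 2.24, 3.00 and 2.66. With this ratio as a covariate, a fit added once the arrays had been seen, the log2 fold change was 1.47 for COR27 and 0.74 for GI. With each array centred on its median, the log2 fold change was 1.46 for COR27 and 0.55 for GI. After quantile normalization it was 1.57 for COR27 and 0.59 for GI. The part of the lower median signal in the differences between replicates was not tested.

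**Figure D2:**
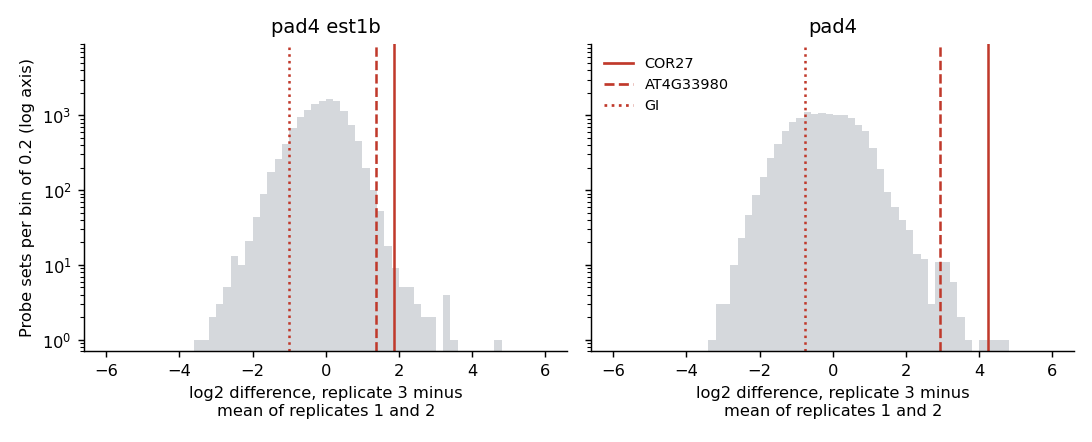
Histograms of the log2 difference between replicate 3 and the mean of replicates 1 and 2 within pad4 est1b (left) and pad4 (right) over the 12804 probe sets tested, with red lines at COR27 (solid), AT4G33980 (dashed) and GI (dotted). COR27 stands at 1.85 in pad4 est1b and 4.23 in pad4, at the upper edge of both distributions, and GI stands at -1.0 and -0.76, inside them.

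The excess of COR27 on the replicate 3 arrays was among the largest of all probe sets. Against the mean of replicates 1 and 2, its replicate 3 value was higher by 1.85 on the log2 scale in pad4 est1b and by 4.23 in pad4. These differences were above those of 99.8% and 99.98% of the other probe sets, with pad4 est1b first. GI had -1.0 in pad4 est1b and -0.76 in pad4, a difference that 8.12% and 27.9% of the other probe sets undercut. The median over all probe sets was -0.05 in pad4 est1b and -0.24 in pad4. This contrast was chosen after the values were seen and carries no test.

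AT4G33980, entered as COR28 in the clock list used here, is the close relative of COR27 and is likewise known as an evening and cold-induced gene. The array annotation and the RefSeq table give it by locus only. It gave 145, 126 and 362 units in pad4 est1b replicates 1, 2 and 3, against 27.5, 32.8 and 296 units in the pad4 replicates of those numbers. As for COR27, both replicate 3 arrays were high, pad4 replicates 1 and 2 were dim, and the groups overlapped through pad4 replicate 3. Its log2 fold change was 1.33 ± 0.79 (SE), with an adjusted p of 1.00 by limma. As for COR27, this estimate rests on the arrays included. It was 0.79 without pad4 replicate 1, 0.89 without pad4 replicate 2 and 2.31 without pad4 replicate 3, 0.88 without pad4 est1b replicate 3, and 2.41 with the labelled stage as a covariate. Without both replicate 3 arrays it was 1.86, and in that fit limma called it (adjusted p = 0.046).

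Few other clock genes could be read. Of the 45 further genes in the lists of morning, evening and clock-associated genes, 5 have a probe set of their own, all of them passed the filter, and 0 were called in either direction. Their median log2 fold change was 0.19, against 0.03 over all probe sets tested, with 4 values above 0 and 1 below, where all probe sets split into 6990 and 5814. The clock median turned to -0.089 with the labelled stage as a covariate. It was 0.027 without pad4 replicate 3, 0.073 without pad4 est1b replicate 2, 0.45 without pad4 est1b replicate 3 and 0.58 without pad4 replicate 1. The groups did not overlap in 0 of the 5, against 9.81% of all probe sets (6.41% higher and 3.4% lower in pad4 est1b). CCA1, LHY, TOC1 and the other central repressors are not among the 5, so the phase of the clock in these leaves could not be read from opposing genes.

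TIC, a nuclear regulator that keeps the clock's amplitude, had the same order of arrays as GI within each genotype. It gave 281, 187 and 107 units in pad4 est1b replicates 1, 2 and 3, against 331, 177 and 74.9 units in the pad4 replicates of those numbers. Its log2 fold change was 0.10 ± 0.53 (SE). XCT, a nuclear protein needed for normal clock pace, was dim, at 47.1, 28.6 and 32.7 units in pad4 est1b against 28.8, 17.2 and 16.7 units in pad4. Replicates 1 and 3 of pad4 est1b stood above all pad4 arrays and replicate 2 just below the highest of them, and the log2 fold change of XCT was 0.58 ± 0.28 (SE). FIO1, whose loss lengthens the clock's period, had 0.19 ± 0.29 (SE). AT5G52660, entered as the MYB-like clock factor RVE6, had -0.28 ± 0.28 (SE) and was the only clock gene with a negative value. None of these differences passed, and their adjusted p was 1.00 by limma.

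Of 14 genes of photoperiodic flowering, the branch that GI controls, only AT1G69570 has a probe set of its own. It is entered as CDF5, one of the CDF repressors of flowering whose removal, as proteins, GI promotes. It gave 15.1, 3.09 and 6.85 units in pad4 est1b and 33.4, 37.6 and 18.8 units in pad4. Every pad4 est1b array was below every pad4 array, as in 3.4% of the probe sets that passed the filter. No such share was worked out for dimmer probe sets. The mean over all 6 arrays was under the filter of 20 units, so no test was made and signals this low are poorly measured.

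**Figure D3:**
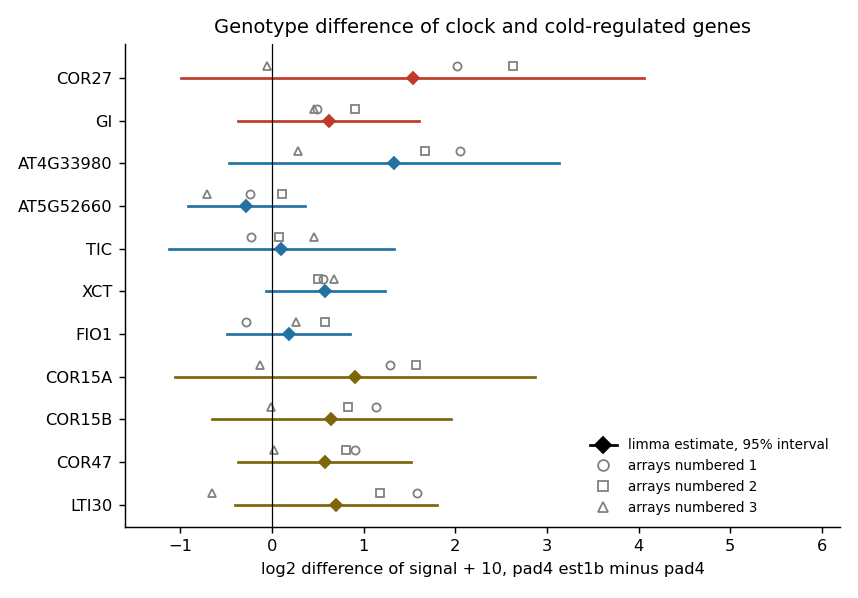
Difference of log2(signal + 10), pad4 est1b minus pad4, for COR27 and GI (red), the other 5 clock genes (blue) and 4 cold-regulated genes (brown). Diamonds with bars are limma estimates with 95% intervals and open symbols are the differences between arrays of one number. Every interval includes 0, and for COR27 the arrays numbered 1 and 2 (2.02 and 2.63) lie far from those numbered 3 (-0.05).

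Cold-regulated genes were set beside COR27 because it is one by name. Of 18 listed, 4 have a probe set of their own. All 4 passed the filter and 0 were called, against 0.0391% of all probe sets. All 4 had a positive log2 fold change, as did 6990 of the 12804 probe sets tested, and their median was 0.68 against 0.03 over all. This median was 0.26 without pad4 replicate 1, 1.25 without pad4 replicate 3, 1.18 without both replicate 3 arrays and 1.64 with the labelled stage as a covariate. COR15A, a chloroplast protein that protects membranes in freezing, gave 633, 1016 and 2384 units in pad4 est1b replicates 1, 2 and 3, against 254, 335 and 2613 units in the pad4 replicates of those numbers. As in COR27, both replicate 3 arrays were high, pad4 replicates 1 and 2 were the dimmest, and the groups overlapped through pad4 replicate 3. The differences by number were 1.29, 1.57 and -0.13 for COR15A.

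The other 3 cold genes did not all share this shape. COR15B, the neighbouring relative of COR15A, was also highest in both replicate 3 arrays, at 2858 units in pad4 est1b and 2883 in pad4. The dehydrin gene COR47 was lowest there, at 954 units in pad4 est1b and 941 in pad4. LTI30, another dehydrin gene, was highest in replicate 3 of pad4 (848 units) and lowest in replicate 3 of pad4 est1b (537 units). By the root mean square difference between centred log2 profiles, LTI30 ranked 408 and COR47 ranked 9178 of 12803 probe sets around COR27. In all 4, as in COR27, the pad4 est1b array exceeded the pad4 array for numbers 1 and 2, by 0.81 to 1.58 on the log2 scale, while the difference for number 3 lay between -0.65 and 0.02.

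Likeness to COR27 and to GI was measured over the 6 arrays as the root mean square difference between log2(signal + 10) profiles, each centred on its own mean. Among named genes, the 6 most like COR27 were AT1G07050, AT4G33980, COR15A, AT1G51090, AT4G30650 and AT1G19960, with differences from 0.26 to 0.83. AT1G07050 came closest. It gave 163, 198 and 866 units in pad4 est1b replicates 1, 2 and 3, against 19.6, 26.6 and 717 units in the pad4 replicates of those numbers. Its swing between arrays was thus as large as that of COR27, and its log2 fold change was 1.77 ± 1.18 (SE). AT4G33980, at 0.52, and COR15A, at 0.54, came next, and they also ranked 2 and 3 among all 12803 other probe sets, named or not.

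The remaining 3 resembled COR27 less. AT1G51090 gave 138, 129 and 196 units in pad4 est1b against 28.5, 35.1 and 371 units in pad4, so its replicate 3 excess was small in pad4 est1b. AT4G30650 was a bright transcript, from 1727 to 4598 units in pad4 est1b and from 845 to 5005 units in pad4. AT1G19960 shared only the replicate 3 excess, since replicates 1 and 2 were alike in both genotypes, at 114 and 120 units in pad4 est1b and 85.4 and 88.3 units in pad4. As their choice by likeness to COR27 on these arrays would fix, all 6 stood higher in replicate 3 than in the mean of replicates 1 and 2, by 0.52 to 2.40 in pad4 est1b and by 2.41 to 4.46 in pad4.

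**Figure D4:**
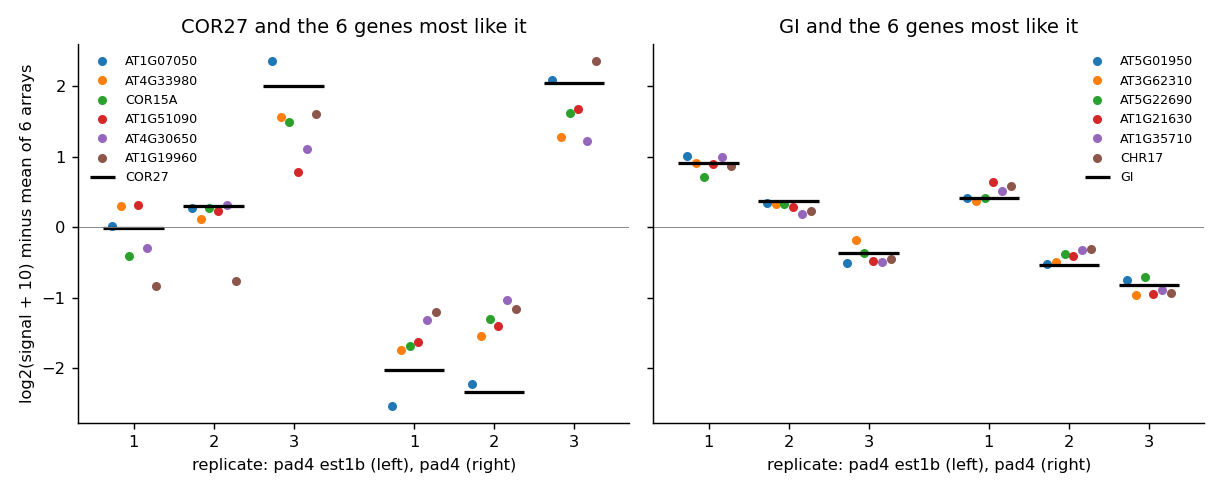
Centred log2(signal + 10) on each array for COR27 (left, black bars) and GI (right, black bars) with the 6 named genes most like each (coloured points), with pad4 est1b replicates 1 to 3 left of pad4 replicates 1 to 3 in each panel. The genes like COR27 are high in both replicate 3 arrays and low in pad4 replicates 1 and 2, while the genes like GI are lowest in replicate 3 of each genotype and lie within a narrow band around it.

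The 6 named genes most like GI were AT5G01950, AT3G62310, AT5G22690, AT1G21630, AT1G35710 and CHR17, a chromatin remodelling factor, with differences from 0.08 to 0.14. Smaller differences than those around COR27 follow in part from the smaller swing of GI. AT5G01950 gave 87.2, 51.1 and 23.8 units in pad4 est1b replicates 1, 2 and 3, against 54.4, 23.5 and 18.6 units in the pad4 replicates of those numbers. Their log2 fold changes lay between 0.43 and 0.72, near that of GI because they were picked for profiles like it. None of the 6 is on the clock or flowering lists, but besides COR27 and GI only 5 genes of these lists passed the filter.

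The number of probe sets near each gene depends on how far the gene itself swings. The root mean square deviation from its own mean was 1.73 for COR27 and 0.61 for GI, with a median of 0.36 over all probe sets, so even a flat profile is far from COR27 and fairly near GI. Within 0.25 on the log2 scale there were 0 other probe sets around COR27 and 203 around GI (1.59%). Within 0.5 there were 1 around COR27 and 3648 around GI (28.5%), and within 1.0 there were 35 around COR27 (0.273%) and 11888 around GI (92.9%). These counts do not separate shared movement from the size of the swing. TIC, at 0.37, and XCT, at 0.35, were among the probe sets near GI, but 1326 and 1031 other probe sets were nearer.

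COR27 and GI were unlike each other. The difference between their profiles was 2.00 on the log2 scale, and 9322 other probe sets were closer to COR27 than GI was. A flat profile would already differ from COR27 by 1.73, the swing of COR27 around its own mean. AT4G33980 was among the probe sets least like GI, ranking 12773 of 12803. This rank also holds the large swing of AT4G33980 itself, whose log2 SD in pad4 was 1.70, larger than that of 99.73% of the other probe sets. By replicate number GI did not follow COR27 and AT4G33980 within either genotype, although all are described as evening-phased. Like them, GI was higher in pad4 est1b for the arrays numbered 1 and 2, by 0.50 and 0.90. For number 3 the difference was 0.46 for GI, -0.05 for COR27 and 0.28 for AT4G33980. COR27 and AT4G33980 were highest in replicate 3 of both genotypes, where GI was lowest.

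**Figure D5:**
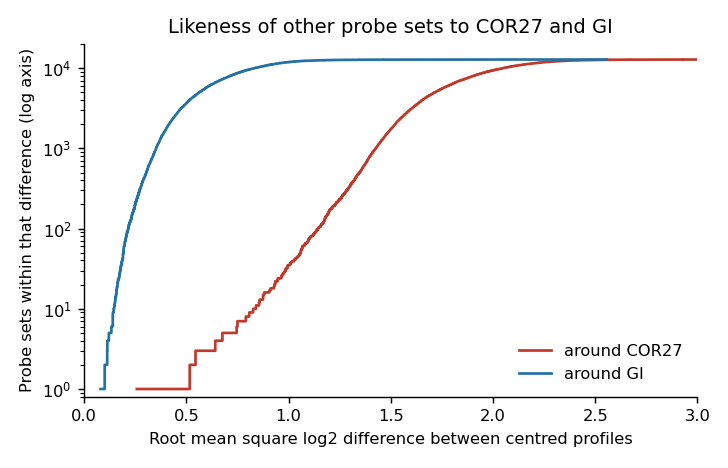
Number of other probe sets (log axis) whose centred profile over the 6 arrays differs from that of COR27 (red) or GI (blue) by no more than the root mean square log2 difference on the horizontal axis. At 0.5 the red curve stands at 1 probe set and the blue curve at 3648, a gap that also holds the larger swing of COR27 itself (1.73 against 0.61 for GI).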

How the data were processed

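Total RNA from leaves was measured on 6 ATH1 arrays, 3 pad4 est1b and 3 pad4, grouped by sample title. Labelling followed the 3' IVT Express procedure, per the labels' protocols. The deposited values are linear intensities (signals); per the submitters' processing notes the software was MAS5 and GCOS, without a version or settings. Genes were named through the platform annotation: of 22810 probe sets, 13513 have 1 gene, 503 several, 8730 none listed, and 64 are controls. Its genome build is unstated, and coordinates are left out.

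Values were used as log2(signal + 10) without further scaling. Control probe sets and those with a mean signal under 20 were left out, which kept 12804. Genotypes were compared with limma 3.58.1 in R 4.3.3 (lmFit, then eBayes; two-sided tests) with Benjamini-Hochberg adjustment over all probe sets kept. The fit was tested on simulated data in which arrays varied independently, so deviations shared by same-numbered arrays and the labelled stage were not covered. P-values measure the spread between these 3 arrays a group, which may be technical, and the number of arrays limits the precision. The members, the gene lists and the alternatives were chosen with earlier results of these data known. Named are COR27, GI, every list gene with its own probe set and the 6 genes most like each member. Profiles were compared with pandas 2.3.3, numpy 2.4.6 and scipy 1.17.1 under Python 3.11.15, and drawn with matplotlib 3.10.9.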

Additional observations from a re-analysis of the deposited data

How the results depend on the processing

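The limits are 3 arrays a group, 1 probe set a gene and an annotation that leaves most clock genes unread. Of the 19 alternatives, the changed filters, the replicate block, the eBayes setting and leaving out cross-hybridising probe sets cannot move a gene's estimate. The fits with stage as a covariate and with only the arrays labelled 5.10 give the same estimate. The log2 fold change of COR27 kept its direction in 19 of 19 alternatives (0.75 to 2.94) and was called in 1, without both replicate 3 arrays (2.33). That of GI was called in 0 of 19 by limma (unadjusted p = 0.19 in the main fit). It ran up to 0.99 but turned to -0.11 with stage as a covariate and again with only the arrays labelled 5.10. In those same fits the clock genes had a median of -0.089 and the cold-regulated genes of 1.64. With single arrays left out, the median ran from 0.027 to 0.58 for the clock genes and from 0.26 to 1.25 for the cold-regulated genes, COR27 from 0.75 to 2.94 and GI from 0.32 to 0.99. The cause of these shifts was not tested, beyond the fewer arrays in each fit.

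Against 5 probe sets called, limma called 0 without the offset (581 at an unadjusted p under 0.05), without the filter (1156), with labelled stage in the model (196), in the stage 5.10 arrays alone (351), without probe sets open to cross-hybridisation (543) and with the control ratio as a covariate (418, chosen after seeing the data). It called 2 after quantile normalization, 1 after median centring and 19 without both replicate 3 arrays. Each array left out in turn gave 0 to 9 calls, with 277 to 908 at an unadjusted p under 0.05.

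In a limma fit with a replicate block, in which the number is a term, 81 probe sets passed (70 higher, 11 lower). COR27 (log2 fold change 1.53, adjusted p = 0.14) and GI (0.62, adjusted p = 0.21) did not. Their SE was 0.42 and 0.20 there, against 1.10 and 0.43 in the main fit. Their unadjusted p by limma was 0.0051 and 0.012 with the block, where 1604 of 12804 probe sets had one under 0.05. Around the means of their groups, arrays sharing a number had correlations of 0.83 (number 1), 0.0 (number 2) and 0.68 (number 3). Arrays numbered 1 and those numbered 3 thus deviated alike in both genotypes. The number stayed out of the main fit because the labels state no pairing.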

Other observations

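Probe sets with no gene listed were also close to COR27. Probe set 267364_at ranked 4 of all, with 81.9, 145 and 1149 units in pad4 est1b replicates 1, 2 and 3, against 30.9, 42.2 and 1212 units in the pad4 replicates of those numbers. Probe set 257382_at ranked 6 and gave 19.4, 21.6 and 296 units in pad4 est1b against 13.8, 7.17 and 223 units in pad4. Both were named after their values were seen.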
